A study of Mus musculus with 3 samples.

Results

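The array of LSK cells without p53 (p53 KO) was compared with the array of wild-type LSK cells (WT), gene by gene. LSK cells, sorted from mice by the absence of lineage markers and the presence of Sca-1 and Kit, hold the haematopoietic stem cells together with multipotent progenitors. The comparison used 2 of the 3 Affymetrix arrays, which were chosen by their labels. The third array came from cells without p53 and without the ETS transcription factor Mef (DKO), and its signals are given beside the others where they help to place a value. Each genotype had 1 array. The labels give no strain, age, sex or number of animals, and they do not say how either gene was deleted. Of 18194 genes with a probe set assigned to 1 gene, 11745 reached the floor of 110.4, the median of all signals, on the WT or the p53 KO array, and these are called measured. A difference is the log2 signal on the p53 KO array minus that on the WT array, so a value of 1 is a 2-fold higher signal on p53 KO. With 1 array per genotype there is no replicate spread, no difference was tested, and every value below describes this pair of RNA samples.

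The protein p53 is a transcription factor that is activated by DNA damage and other stress, and it switches on genes that halt the cell cycle, repair DNA or start cell death. In blood stem cells it is known for holding cells in a resting state and for removing damaged cells. Myc, a transcription factor that drives cell growth, and the making of ribosomes in the nucleolus are tied to p53 through well-known feedback: when ribosome assembly fails, free ribosomal proteins bind Mdm2, the main inhibitor of p53. The level of the p53 gene itself was not analysed here, so the genotypes rest on the labels.

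Over all probe sets the arrays had median signals of 98.0 (WT), 105 (p53 KO) and 129 (DKO). The ratio of 3' to 5' signal, a sign of RNA integrity, was 8.29 and 6.20 for Actb and 5.85 and 6.61 for Gapdh on the WT and p53 KO arrays. The labelled cell type was checked against its markers. Kit, the receptor that gives LSK cells their K, had a signal of 4996 on WT, 2522 on p53 KO and 4873 on DKO. Flt3, a receptor of multipotent progenitors, was also lower on p53 KO, at 2387 on WT and 1492. Cd34 was at 2230 and 2442, Cd48 at 1070 and 1214 and Slamf1 at 475 and 549 on WT and p53 KO. Ly6a, which encodes Sca-1, was not analysed here. Of T cell markers, Cd3e and Cd4 were below the floor on both arrays and Cd8a was at 254 and 284, while neutrophil genes were strong on both, with Ngp at 29306 and 34514. Several lineage markers that an LSK gate should remove were higher on p53 KO, among them Ms4a1 (CD20), at 339 and 1581. In bulk RNA, fewer cells of a type and less RNA per cell cannot be told apart.

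Genes at least 2-fold higher on p53 KO numbered 820, or 6.98% of the 11745 measured, and 402 genes (3.42%) were at least 2-fold lower. Together they made 10.4% of measured genes, and the median difference over all measured genes was -0.01. At 4-fold the counts were 77 higher and 18 lower. The median WT signal was 334 for the higher genes and 1144 for the lower genes, beside 646 for all measured genes. On the p53 KO array the medians were 954 for the higher and 444 for the lower genes. Because genes were called by the difference of these 2 signals, such levels follow in part from the choice. Of the higher genes, 111 were below the floor on WT. Of the lower genes, 40 were below the floor on p53 KO. For such genes the difference is a lower bound and is written as "at least". For 327 of the higher genes another probe set was measured and it had the same sign for 297 of them (90.8%), but it reached 2-fold for 139 (42.5%). Among lower genes 132 of 159 (83.0%) had the same sign and 33 (20.8%) reached 2-fold, so the size of a single gene's difference often depended on the probe set.

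**Figure D1:**
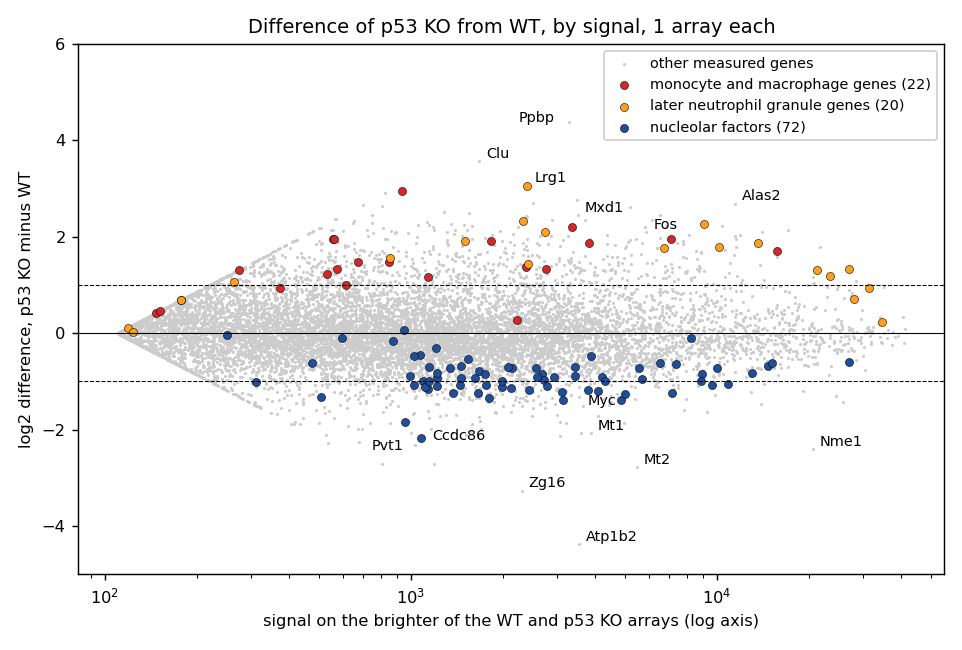
Log2 difference of p53 KO minus WT for each measured gene (vertical axis) against its signal on the brighter of the WT and p53 KO arrays (horizontal log axis); dashed lines mark 2-fold. Of 72 nucleolar factors (blue) 71 lie below 0 and 27 below the lower dashed line, while 16 of 22 monocyte and macrophage genes (red) and 14 of 20 later neutrophil granule genes (orange) lie on or above the upper one.

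To describe the differences by function, 2106 of the 11745 measured genes were grouped into 105 lists. The lists held 262 of the 820 genes at least 2-fold higher and 104 of the 402 at least 2-fold lower. They were chosen with earlier results of these data known, so such counts follow in part from the choice. The median of a list was over 0.5 for 26 lists and under -0.25 for 12 lists. Genes of mature myeloid, B, platelet and red cells were higher on p53 KO, with single platelet and neutrophil genes over 8-fold apart. Genes that make ribosomes, tRNAs and mitochondria were lower by modest amounts in most of the genes measured. Most lists of DNA replication, DNA repair and chromatin had medians near 0.

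**Figure D2:**
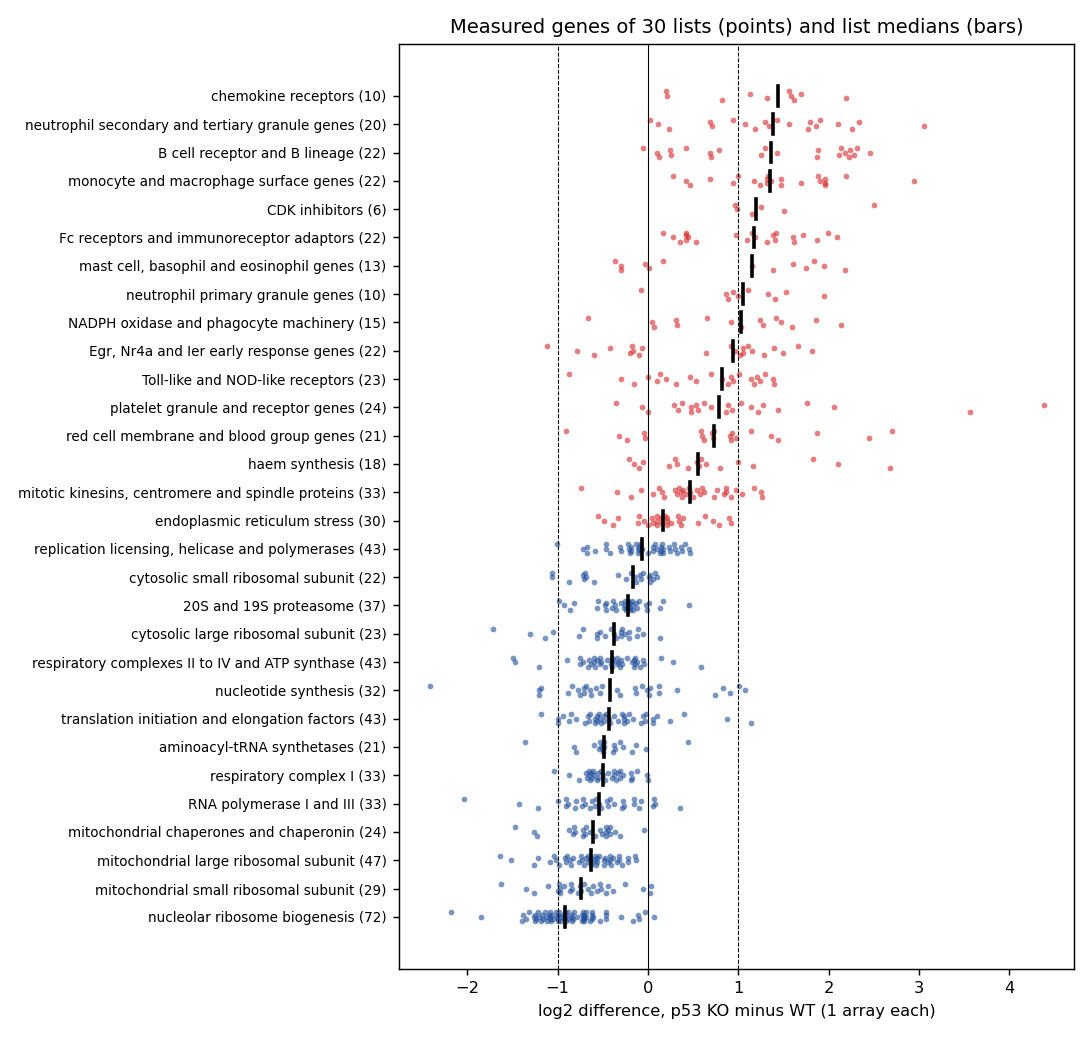
Log2 difference of p53 KO minus WT (horizontal axis) for every measured gene of 30 of the lists, with the number of genes in parentheses, the list median as a black bar and dashed lines at 2-fold. Medians run from 1.44 for chemokine receptors to -0.92 for nucleolar ribosome biogenesis, and points are red where the median is above 0 and blue where it is below.

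The Myc network controls many genes of ribosome making. Myc itself had a signal of 3532 on WT, 1624 on p53 KO and 3137 on DKO, a difference of -1.12 for p53 KO. Pvt1, the noncoding gene beside Myc, was at 1031, 207 and 149 on the same arrays, a difference of -2.32, and its further probe sets lay between -1.05 and -0.30. Mycn, a relative of Myc, was slightly higher, at 1790 on WT and 2466 on p53 KO (0.46). The Mxd proteins compete with Myc for the partner Max and repress the genes that Myc activates. Mxd1 had a signal of 646 on WT, 3508 on p53 KO and 1009 on DKO, and the difference of 2.44 was 1.47 by its other probe set. Mxd3 was at 264, 1047 and 404, a difference of 1.99, and between 1.24 and 1.68 by its other probe sets. Mxi1, a further repressor of the family, was at 2104 and 3318 (0.66), whereas Mxd4 was at 1705 and 1916 (0.17, and -0.48 and 0.04 by its other probe sets). The dim signal of Max, the shared partner, was 210 on WT and below the floor on p53 KO. Across the 16 measured genes of the network the median was -0.08, with 8 genes higher and 8 lower.

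Factors that build ribosomes in the nucleolus were lower on p53 KO almost throughout. Of 72 measured genes 71 had a lower signal, 27 (37.5%) were at least 2-fold lower beside 3.42% of all measured genes, and the median was -0.92. Ccdc86, a nucleolar coiled-coil protein, was at 1081 on WT, 238 on p53 KO and 416 on DKO, a difference of -2.18, with other probe sets at -1.67 and -0.60. Rrp9, a protein of the U3 particle that processes pre-ribosomal RNA, followed at 958, 266 and 356 (-1.85). Among core proteins of the particles that methylate ribosomal RNA, Nop56 was at 4851, 1851 and 3193 (-1.39) and its partner Nop58 at 1805, 708 and 1090 (-1.35). Fbl, the methyltransferase of these particles, was at 10854, 5220 and 6730 (-1.06, and -0.90 by its other probe set). The most abundant members differed less. Npm1, a histone chaperone and ribosome assembly factor, was at 27011, 17777 and 23834 (-0.60), and Ncl, which encodes nucleolin, at 14725, 9173 and 11361 (-0.68). The only member with a higher signal was the helicase gene Ddx52, at 910 and 951 (0.06, and -0.37 by its other probe set). A further probe set was measured for 42 of the 72 genes, and its median difference was below 0 for 41 of them, with a median of -0.77. Against the same WT array the DKO median of the list was -0.46.

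RNA polymerases I and III, which transcribe ribosomal RNA, tRNA and other small RNAs, had a median of -0.54 over 33 genes, of which 29 were lower. Polr3k, a small subunit of polymerase III, was at 1572 on WT, 383 on p53 KO and 2013 on DKO, a difference of -2.04, with other probe sets between -1.36 and -0.31. Polr1b, the second largest subunit of polymerase I, was at 1866, 693 and 1203 (-1.43), and Taf1c, part of the factor that brings polymerase I to its promoter, at 1421, 611 and 938 (-1.22). Genes whose symbols share a stem were also compared without regard to the lists, over 122 stems with at least 10 measured genes. The lowest median of all was that of the tRNA methyltransferase stem Trmt, at -0.81 with 15 of 15 genes lower. Trmt61a, the catalytic subunit of a methyltransferase that marks adenosines of tRNA, was at 2132 on WT and 691 on p53 KO (-1.63). The Snhg stem, noncoding genes that host small nucleolar RNAs in their introns, had a median of -0.56, and 11 of its 13 genes were lower. Snhg3 was at 1781 and 663 (-1.43) and Snhg4 at 2190 and 840 (-1.38). The remaining stems among the 10 lowest were Mrps, Utp, Mrpl, Gtf, Ddx, Timm, Ndufb and Mettl, with medians from -0.74 to -0.49. Of 11 Utp genes 9 were lower and 2 higher, by up to 0.84, and 0 were at least 2-fold lower.

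**Figure D3:**
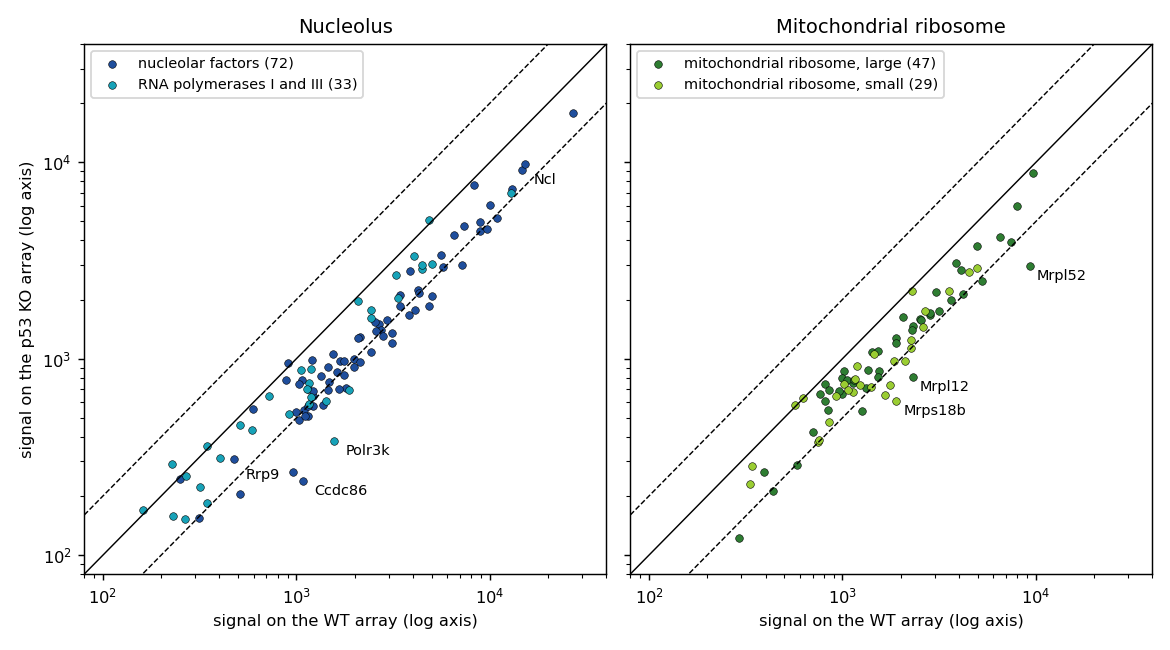
Signal on the p53 KO array against signal on the WT array, both on log axes, for nucleolar factors and RNA polymerases I and III (left) and for the mitochondrial ribosome (right); the solid line marks equal signal and dashed lines 2-fold. Points of both panels lie almost wholly below the solid line over a wide range of signals, with Ccdc86, Rrp9, Polr3k and Mrps18b among those beyond 2-fold.

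For proteins of the cytosolic ribosome itself the medians were closer to 0 by the brightest probe set of each gene, but not by further ones. The large subunit had a median of -0.37 over 23 genes, 22 of them lower, and the small subunit a median of -0.17 over 22 genes, 16 of them lower. Further probe sets were measured for 7 large and 12 small subunit genes. Their median difference was below 0 for all of these genes, with list medians of -0.69 and -0.46. Rpl37 was at 2480 on WT, 755 on p53 KO and 3017 on DKO (-1.72), and Rpl41 at 24471, 9929 and 19511 (-1.30). In the small subunit list the lowest was Rps27l, at 3224, 1541 and 2001 (-1.06). Rps27l, a ribosomal protein paralogue, is itself a known p53 target. Translation factors had a median of -0.43 over 43 genes. Eif1a, an initiation factor that scans for the start codon, was at 3048 and 1337 (-1.19, and -0.84 by its other probe set). The only member at least 2-fold higher was Eif4e3, a cap-binding protein, at 846 and 1863 (1.14, but 0.77 by its other probe set). Aminoacyl-tRNA synthetases had a median of -0.49 with 20 of 21 genes lower. The lowest was Farsa, the alpha subunit of the phenylalanine enzyme, at 1446 and 561 (-1.37, and -1.10 and -0.65 by its other probe sets). Over these 6 lists of nucleolar factors, polymerases I and III, the cytosolic ribosome and translation, 194 of 214 measured genes (90.7%) had a lower signal on p53 KO, beside 50.4% of all measured genes. These genes were measured in the same 2 RNA samples and are not replicates.

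Mitochondrial genes were lower by similarly modest amounts. All 47 measured genes of the large subunit of the mitochondrial ribosome had a lower signal on p53 KO, with a median of -0.63. Mrpl52 was at 9286 on WT, 2975 on p53 KO and 4272 on DKO, a difference of -1.64, and -1.53 and -1.48 by its other probe sets. Mrpl12, which also binds the mitochondrial RNA polymerase, was at 2307, 807 and 1313 (-1.52). The small subunit had a median of -0.74 with 27 of 29 genes lower, led by Mrps18b at 1889, 612 and 931 (-1.63). Further probe sets were measured for 24 large and 11 small subunit genes. Their median difference was above 0 for 3 genes of each subunit, and the list medians were -0.43 and -0.35. Proteins that fold or degrade mitochondrial proteins, with prefoldin and the cytosolic chaperonin on the same list, were lower in 24 of 24 genes, with a median of -0.61. Hspa9, the mitochondrial Hsp70, was at 13897, 5026 and 10785 (-1.47), but its other probe sets ran from -1.25 to 0.17. Hspe1, the lid of the mitochondrial chaperonin, was at 4724, 1969 and 2790 (-1.26, and -0.69 by its other probe set). Timm8a1, a carrier of proteins between the mitochondrial membranes, led the import stem Timm at 4777 and 1860 (-1.36, and -0.67 by its other probe set).

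Respiratory chain genes had a median of -0.50 for complex I and -0.40 for complexes II to IV with ATP synthase, and 72 of the 76 genes of both lists were lower. Only 4 of the 76 were at least 2-fold lower (5.26%, beside 3.42% of all measured genes). Sco2, a copper chaperone for cytochrome oxidase that is a known p53 target, was at 589 on WT, 210 on p53 KO and 473 on DKO (-1.49). Uqcr11, a small subunit of complex III, was at 2638, 954 and 1244 (-1.47), and Ndufb2 of complex I at 2756, 1342 and 1951 (-1.04). Against the same WT array the DKO medians were -0.36 and -0.34. The citric acid cycle list was at -0.30 with 25 of 29 genes lower, yet Idh1, the cytosolic isocitrate dehydrogenase on the same list, was higher at 1526 and 4550 (1.58, and 0.78 by its other probe set).

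Genes that supply nucleotides and amino acids were mixed. In nucleotide synthesis, Nme1, a nucleoside diphosphate kinase, was at 20531 on WT, 3852 on p53 KO and 4276 on DKO, a difference of -2.41 that was -0.97 by its other probe set. Mthfd1, the trifunctional folate enzyme, was at 19067 and 8285 (-1.20, and between -1.52 and -1.50 by other probe sets). Cad, which starts pyrimidine synthesis, was at 3062 and 1345 (-1.19, and -0.91 by its other probe set). On the other side, Rrm2, the ribonucleotide reductase subunit made in S phase, was at 13534 and 28502 (1.07), and Dck, the kinase that salvages deoxycytidine, at 9828 and 19740 (1.01, and 0.23 and 1.18 by other probe sets). Spermidine synthase (Srm) was at 9849 and 4036 (-1.29) and asparagine synthetase (Asns) at 7258 and 3082 (-1.24). The glycine transporter gene Slc6a9 was higher, at 631 and 2023 (1.68). Proteasome subunits were within 2-fold in 37 of 37 genes, with a median of -0.23. Among splicing factors the median was -0.06, and Ptbp1, a splicing repressor, stood apart at 3204 and 886 (-1.85), although its other probe sets gave -0.34 and -0.09.

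Over 9 alternative settings the medians of the lower lists kept their sign. The nucleolar median stayed between -0.92 and -0.82, the mitochondrial large subunit between -0.63 and -0.48 and complex I between -0.61 and -0.44. The cytosolic ribosome moved more, from -0.57 to -0.32 for the large subunit and from -0.49 to -0.17 for the small one. Markers of mature cells were higher on the same array. The summed signal of the 22 monocyte genes was 15481 on WT and 46683 on p53 KO, and that of the 20 later neutrophil granule genes 106306 and 218302. Their part in the lower growth genes was not tested.

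Cell cycle genes gave no uniform picture. Of 6 measured CDK inhibitors, which block the kinases that drive division, all were higher on p53 KO. At least 2-fold higher were 4 of them (66.7%, beside 6.98% of all measured genes). Cdkn2d (p19) was at 275 on WT, 1551 on p53 KO and 336 on DKO, a difference of 2.50. Cdkn2c (p18) was at 1950, 4643 and 1751 (1.25), and Cdkn1b (p27) at 781, 1729 and 1084 (1.15). Cdkn3, a phosphatase that acts on CDKs, was at 493, 1398 and 554 (1.5). Cdkn1a (p21), the classical p53 target, was at 291, 569 and 648 (0.97), so its signal was not lower on either array from p53-null cells. The other Cdkn1a probe set gave 0.39 for p53 KO. E2F factors control genes of S phase. E2f2 was at 1270, 5809 and 624 (2.19, and 1.89 by its other probe set), and the repressor E2f7 at 551, 1774 and 907 (1.69). The E2F list as a whole had a median of 0.09. G1 cyclins and kinases had a median of -0.15, with Ccnd3 at 1400 and 3858 (1.46), Cdk4 at 5624 and 3355 (-0.75) and Cdk7 at 1963 and 854 (-1.20). Other probe sets gave -0.12 and 0.70 for Ccnd3 and ran from -0.54 to 0.00 for Cdk7.

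**Figure D4:**
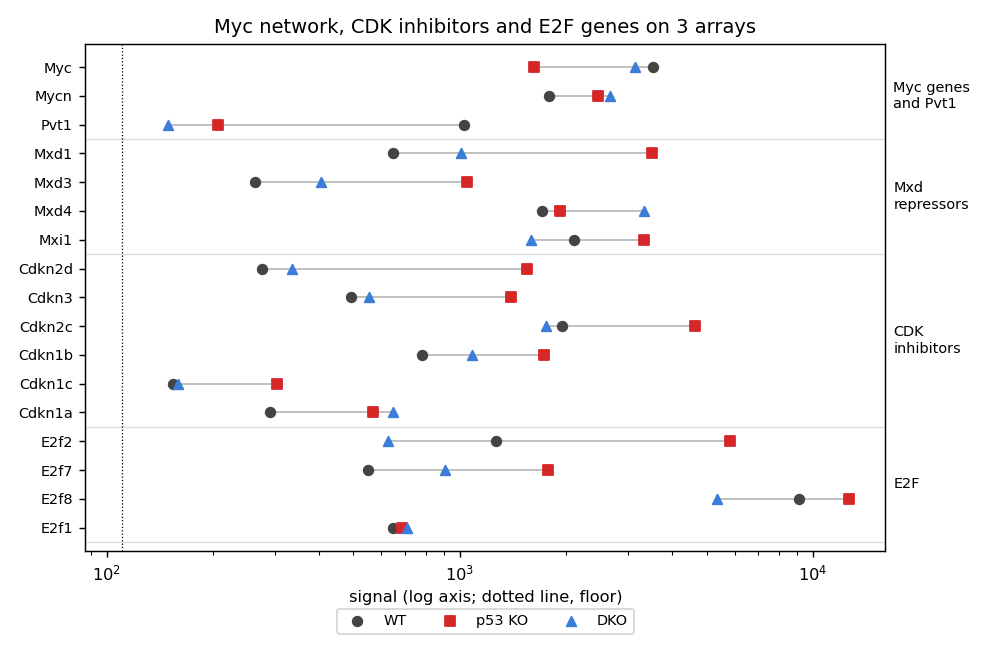
Signal of each gene on the WT (grey circle), p53 KO (red square) and DKO (blue triangle) arrays, on a log axis, for Myc genes and Pvt1, Mxd repressors, CDK inhibitors and E2F genes; the dotted line is the floor of 110.4. Mxd1, Mxd3, Cdkn2d, Cdkn3, Cdkn2c, Cdkn1b and E2f2 are brightest on p53 KO, Myc is dimmest there, and Cdkn1a and Pvt1 lie close together on p53 KO and DKO.

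DNA replication was level between the arrays. The list of licensing factors, helicase and polymerases had a median of -0.06 over 43 genes and 1 gene beyond 2-fold, Orc2, a subunit of the origin recognition complex, at 2325 and 1157 (-1.01, but -0.96 and 0.27 by its other probe sets). Spindle and centromere genes were slightly higher, with a median of 0.47 and 29 of 33 genes positive. Cdc25b, the phosphatase that lets cells enter mitosis, was at 617 on WT, 2402 on p53 KO and 770 on DKO (1.96). The proliferation marker Mki67 was at 17134, 24396 and 13655 (0.51). Repair lists had medians between -0.21 and -0.03. Xrcc5, the large Ku subunit of end joining, was at 700 and 288 (-1.28), and Xrcc3, a factor of recombination, at 618 and 236 (-1.39, and -0.71 by its other probe set). Rec8, the cohesin subunit of meiosis, was among the lowest genes of all, at 1189, 182 and 434 (-2.71).

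Known p53 targets did not move as a block. Arrest and repair targets had a median of 0.19 over 18 genes, and apoptosis targets a median of 0.11 over 18. The only gene of both lists that was at least 2-fold lower was Zmat3, an RNA-binding zinc finger protein, at 736 on WT, 203 on p53 KO and 151 on DKO. Phlda3, an inhibitor of Akt, was at 344, 188 and 275 (-0.87). Btg2, an antiproliferative target that is also an early response gene, was at 650, 2052 and 818 (1.66), and Perp was at 91.8 and 224, at least 1.02 higher. Among regulators of p53 the arginine methyltransferase gene Prmt5 was at 2061 and 1153 (-0.84) and the kinase gene Hipk2 at 1291 and 2709 (1.07). The 4 other Hipk2 probe sets gave between 0.69 and 0.98. The Bcl2 family had a median of -0.01. Its member Bcl2l1 (Bcl-xL) was at 862, 2432 and 858 (1.5), but its other probe set gave 0.16. Endog, a mitochondrial nuclease released in cell death, was at 611, 250 and 674 (-1.29).

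Neutrophil genes of early and late granules were higher. Secondary and tertiary granule genes, which are made as the cells mature, had a median of 1.39, with 20 of 20 genes positive and 14 at least 2-fold higher (70%, beside 6.98% of all measured genes). Lrg1, a glycoprotein of granules, was at 288 on WT, 2397 on p53 KO and 203 on DKO (3.06). Ltb4r1, the receptor for the attractant leukotriene B4, was at 462, 2333 and 406 (2.33), and the surface protein gene Cd177 at 1896, 9104 and 1347 (2.26). Primary granule genes, which are made in promyelocytes, had a median of 1.05. Mpo, myeloperoxidase, was at 14665, 27108 and 27120 (0.89), and Prtn3, proteinase 3, at 5508, 10581 and 11025 (0.94). Elane, neutrophil elastase, was at 800, 1719 and 2308 (1.10). Against the same WT array the DKO median was 0.94 for primary granules and -0.50 for the later granules.

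The promoters of the primary granule genes were searched for GAGGAAGT on both strands, a core bound by the ETS factor PU.1, in the 250 bases before the start of each gene. It was present in 4 of 8 listed promoters (50%) and in 3.07% of 9564 measured genes with a promoter. In later granule and in B lineage promoters the share was 11.1%, and among nucleolar promoters 9.84%. The 4 primary granule promoters with the match were those of Mpo, Elane, Prtn3 and Ctsc, with differences of 0.89, 1.10, 0.94 and 1.53. The other Ctsc probe set gave 0.63. A stretch of 100 bases that holds the match is shown for Elane (chr10:79886181-79886280, plus strand), Prtn3 (chr10:79879526-79879625, plus strand) and Mpo (chr11:87793534-87793633, plus strand), from RefSeq on GRCm38.p6. These 3 were picked because their differences were similar, and Ctsc is not shown. Capitals mark the match, which is a run of letters and not a measured binding site.
Elane: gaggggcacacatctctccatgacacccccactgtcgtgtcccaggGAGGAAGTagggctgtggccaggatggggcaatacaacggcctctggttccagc
Prtn3: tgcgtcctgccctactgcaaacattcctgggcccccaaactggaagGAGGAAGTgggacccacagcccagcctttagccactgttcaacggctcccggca
Mpo: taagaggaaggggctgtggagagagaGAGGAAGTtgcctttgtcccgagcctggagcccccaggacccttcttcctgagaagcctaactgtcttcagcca

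Monocyte and macrophage surface genes were higher in 22 of 22 cases, with a median of 1.35. At least 2-fold higher were 16 of them (72.7%, beside 6.98% of all measured genes). Further probe sets were measured for 6 of the genes, all positive, with a median of 0.99 and 3 at least 2-fold higher. Clec4a3, an inhibitory lectin receptor, was at 122 on WT, 940 on p53 KO and 138 on DKO (2.94). Ccr2, which leads monocytes out of the marrow, was at 735, 3365 and 465 (2.19, and between 0.12 and 1.29 by other probe sets). Csf1r, the receptor for the macrophage growth factor M-CSF, was at 4841, 15695 and 8826 (1.70). Chemokine receptors as a list had a median of 1.44, and 7 of 10 genes were at least 2-fold higher. Besides Ccr2 these held Ackr1, a decoy receptor, at 342 and 1105 (1.69), Ccr1 at 222 and 679 (1.61), and Cxcr2, which guides neutrophils, at 291 and 858 (1.56). Over the 9 alternative settings the median of the chemokine receptor list ran from 0.71 to 1.44. The DKO median of the list was -0.20.

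Receptors that sense antibody and microbes were higher too. Fc receptors and their adaptors had a median of 1.17 with 22 of 22 genes positive. Further probe sets of 5 of these genes were all positive, with a median of 0.68 and 0 at least 2-fold higher. Pirb, an inhibitory receptor for MHC class I, was at 308 on WT, 1311 on p53 KO and 198 on DKO (2.09), and Fcer1g, the signalling chain shared by several Fc receptors, at 350, 1146 and 317 (1.71). Toll-like and NOD-like receptors had a median of 0.82, led by Tlr2, which senses bacterial lipoproteins, at 362 and 950 (1.39). The phagocyte oxidase gene Cybb was at 3753, 13651 and 2241 (1.86) and its partner Ncf1 at 5186, 13816 and 4799 (1.41). All 3 chains of complement C1q were higher. C1qb was at 469 and 1366 (1.54, and 0.66 and 1.60 by its other probe sets). C1qa and C1qc were below the floor on WT and at least 1.61 and 1.35 higher. The lysosomal protease gene Ctss was at 5218 and 15693 (1.59). MHC class I and peptide loading genes ran the other way, with 14 of 18 genes lower and a median of -0.17, among them the peptide transporter gene Tap1 at 2380 and 1141 (-1.06).

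Genes of eosinophils, basophils and mast cells had a median of 1.15 over 13 genes, of which 9 were higher and 4 lower. Over the 9 alternative settings the median of this list ran from 0.63 to 1.61. Prg2, the major basic protein of eosinophil granules, was at 1223 on WT, 4383 on p53 KO and 272 on DKO (1.84), and Epx, eosinophil peroxidase, at 413, 1590 and 101 (1.94). Of 24 platelet genes 9 were at least 2-fold higher (37.5%, beside 6.98% of all measured genes), and the median was 0.78. By further probe sets of 7 platelet genes the median was 0.64, with 5 genes positive and 2 negative. Clu, a secreted chaperone stored in platelet granules, was at 141, 1674 and 504, a difference of 3.57, whereas its other probe sets ran from 0.44 to 2.53. Pf4, a platelet chemokine, was at 1925, 5234 and 3365 (1.44).

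Of 22 B lineage genes 13 were at least 2-fold higher (59.1%, beside 6.98% of all measured genes), and the median was 1.36. Early genes were among them: Igll1, part of the surrogate light chain of pre-B cells, was at 136 on WT, 744 on p53 KO and 366 on DKO (2.45), and Vpreb1, its partner, at 224, 1056 and 493 (2.24). Later genes were too, with Ms4a1 as given above (2.22) and Cd22, an inhibitory receptor, at 179, 809 and 306 (2.18). Pou2af1, a coactivator of immunoglobulin genes, was at 449, 1953 and 341 (2.12), and the secreted class gene Igha at 10068, 20780 and 2605 (1.05). Ighm, the IgM heavy chain, was at 12718 and 13095 (0.04), but its 6 other probe sets ran from -2.02 to 0.62. A further probe set was measured for 7 of the 22 B lineage genes, with a median of 0.68, 6 positive and 1 at least 2-fold higher. Over the 9 alternative settings the B lineage median ran from 0.74 to 1.36. T lineage genes were mostly not measured, with 8 of 20 genes on the array over the floor and a median of 0.14.

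**Figure D5:**
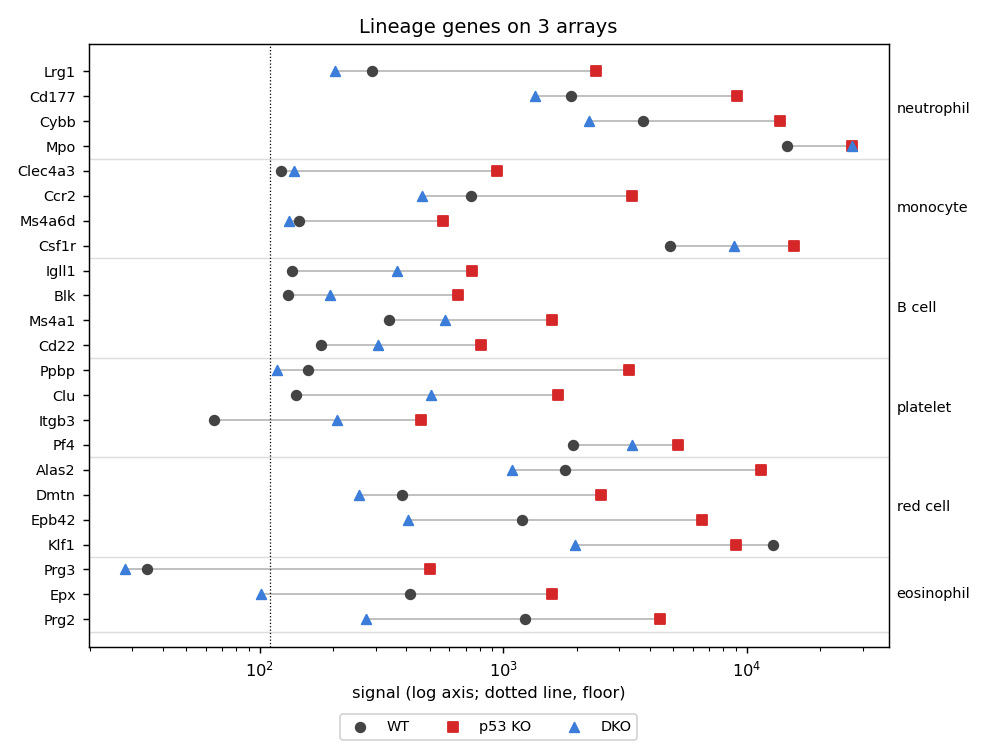
Signal of 23 lineage genes on the WT (grey circle), p53 KO (red square) and DKO (blue triangle) arrays, on a log axis with the floor of 110.4 as a dotted line. The p53 KO array is brightest for most genes; Mpo is equally bright on p53 KO and DKO, and Klf1 is brightest on WT.

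Genes of haem synthesis and of the red cell membrane were mostly higher, with medians of 0.55 and 0.73. By further probe sets the medians were 0.73 for 9 haem genes and 0.29 for 13 membrane genes, 3 of the 13 lower. Alas2, the enzyme that starts haem synthesis in red cell precursors, was at 1787 on WT, 11459 on p53 KO and 1091 on DKO (2.68). Slc25a37 (mitoferrin), which brings iron into mitochondria, was at 3264, 14017 and 2592 (2.10), and Fech, which inserts the iron, at 9210, 20598 and 3811 (1.16). Bpgm, which makes the red cell metabolite bisphosphoglycerate, was at 2149, 7756 and 1775 (1.85). Among membrane genes Dmtn was at 385, 2509 and 256 (2.70, and 0.43 and 1.45 by other probe sets). Epb42 was at 1199, 6526 and 408 (2.44, and 1.48 by its other probe set). Slc4a1, the anion exchanger, was at 12659, 24942 and 6613 (0.98). The blood group genes Rhd, at 2606, 7095 and 495 (1.44), and Kel, at 2034, 4494 and 373 (1.14), were also higher. The list of erythroid transcription factors and cofactors went both ways, with 9 of 21 genes higher, 12 lower and a median of -0.03. Lower members included factors that start the red cell programme: Klf1 was at 12847, 9033 and 1972 (-0.51), Gata1 at 4923, 3855 and 1422 (-0.35), Gfi1b at 2754, 1029 and 824 (-1.42) and Ldb1 at 1547, 598 and 879 (-1.37). Tfr2, a transferrin receptor that senses iron, was lower as well, at 12964, 5547 and 5679 (-1.22, and -0.99 by its other probe set). At least 2-fold higher were Sox6 and Maf. Sox6, which supports the maturation of definitive red cells, was at 1196, 6132 and 1795 (2.36). Its other probe sets gave between 1.15 and 1.64. Maf, a bZIP factor also active in macrophages, was at 189, 566 and 195 (1.58). Against the same WT array the DKO medians were -0.71 for haem synthesis and -0.97 for the membrane genes, beside 0.55 and 0.73 for p53 KO.

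AGATAA, a core bound by GATA factors, was searched in the same windows on both strands and was present in 6 of 16 red cell membrane promoters (37.5%) and in 7.30% of measured genes. It was also in 27.8% of later neutrophil granule promoters, 19.2% of those of the mitochondrial small subunit and 17.6% of monocyte promoters. In the haem synthesis list 1 of 15 promoters held it, that of Alas2. A stretch of 100 bases that holds the match is given for Alas2 (chrX:150547285-150547384, plus strand) and Epb42 (chr2:121037028-121037127, minus strand), from RefSeq on GRCm38.p6, as the highest members of each list with a match. Capitals mark the match, here on the opposite strand as TTATCT.
Alas2: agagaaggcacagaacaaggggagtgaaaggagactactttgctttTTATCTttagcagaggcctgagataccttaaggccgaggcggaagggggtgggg
Epb42: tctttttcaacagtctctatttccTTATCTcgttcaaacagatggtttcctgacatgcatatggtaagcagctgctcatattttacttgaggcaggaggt

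Other promoter searches gave shares both near to the background and above it. CACGTG, the E-box core bound by Myc and Max, was present in 4 of 61 nucleolar promoters (6.56%), those of Nop2, Nol11, Utp18 and Imp4, and in 9.90% of measured genes. CCCNNGGG, a core bound by the B cell factor Ebf1, was in 22.2% of B lineage promoters and 18.4% of measured genes. TTGCNNAA, a core bound by C/EBP factors, was in 33.3% of 18 later granule promoters and 9.20% of measured genes. A window without a match says only that these letters are not in it.

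Metallothioneins, small proteins that bind zinc and copper and are switched on by metal and glucocorticoid, were among the lowest genes. Mt2 was at 5473 on WT, 795 on p53 KO and 1041 on DKO (-2.78), and its neighbour Mt1 at 3873, 917 and 894 (-2.08). The zinc exporter gene Slc30a1, another known target of the metal sensor Mtf1, was higher at 505, 984 and 453 (0.96), and Slc30a4 at 280, 687 and 595 (1.29). The median over the 20 metallothionein and zinc transporter genes was 0.06. The 250 bases before the start of both metallothionein genes are given because the genes lie side by side and had the largest differences of their list. The core of the metal response element was searched as TGCACNC or TGCGCNC on both strands. Mt2 (chr8:94172368-94172617, plus strand) held 3 matches and Mt1 (chr8:94178839-94179088, plus strand) 1, shown in capitals on RefSeq sequence of GRCm38.p6. At least 1 match was present in 33.8% of measured genes, so these letters alone are common.
Mt2: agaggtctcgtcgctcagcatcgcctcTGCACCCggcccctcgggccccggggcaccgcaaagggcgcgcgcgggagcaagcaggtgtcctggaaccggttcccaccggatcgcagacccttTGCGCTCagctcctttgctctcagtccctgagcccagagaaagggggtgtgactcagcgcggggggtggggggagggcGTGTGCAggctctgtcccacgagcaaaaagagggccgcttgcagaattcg
Mt1: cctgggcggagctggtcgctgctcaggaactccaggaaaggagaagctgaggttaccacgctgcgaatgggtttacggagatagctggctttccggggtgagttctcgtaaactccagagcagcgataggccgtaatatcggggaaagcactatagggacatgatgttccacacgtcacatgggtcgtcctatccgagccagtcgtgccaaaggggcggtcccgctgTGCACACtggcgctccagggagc

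Stress programmes differed from each other. A list of 22 early response genes, drawn from the Egr, Nr4a, Ier, Gadd45, Btg and Zfp36 families and others, had a median of 0.94, with 13 genes higher and 9 lower. In it 10 genes were at least 2-fold higher (45.5%, beside 6.98% of all measured genes). At least 2-fold lower was 1, Myc (4.55%, beside 3.42%). Ppp1r15a (Gadd34), a phosphatase subunit that restarts translation after stress, was at 871 on WT, 3066 on p53 KO and 723 on DKO (1.82). Zfp36, which destabilises cytokine mRNA, was at 324, 912 and 871 (1.5). Ier5 was at 428, 1046 and 575 (1.29, but 0.44 by its other probe set), whereas Egr1 was at 925, 860 and 2830 (-0.10). In the AP-1 list Fos was at 1384, 5890 and 14202 and Jun at 180, 369 and 930, so that both were brightest on DKO. The other Jun probe set gave 0.17 for p53 KO. Krüppel-like factors split: Klf5 was at 153 and 508 (1.73) and Klf6 at 521 and 1544 (1.57), but Klf16 was at 693 and 175 (-1.99). Of 29 interferon response genes 8 were at least 2-fold higher (27.6%), and the median was 0.55. Rsad2 (viperin) was at 3855, 17019 and 3308 (2.14, and between 2.08 and 2.56 by other probe sets), and Ifi27l2a at 112, 510 and 175 (2.18). The stem Ifi had the highest median of the 122 stems, at 0.68. The endoplasmic reticulum stress list had a median of 0.17 and no gene beyond 2-fold. Cytosolic heat shock genes had a median of -0.14, with Fkbp4, a cochaperone of steroid receptors, at 2503 and 957 (-1.39, but -0.76 and 0.78 by its other probe sets). Of 36 antioxidant and glutathione genes 20 were higher and 16 lower. The microsomal glutathione transferases Mgst1 at 2590 and 6767 (1.39), Mgst2 at 731 and 1820 (1.32) and Mgst3 at 406 and 1029 (1.34) were among the higher ones, and Gstm5 was lower, at 4517 and 1826 (-1.31).

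Stem cell genes and signalling pathways were nearer to 0. Prom1 (CD133) was at 489 on WT, 2244 on p53 KO and 422 on DKO (2.20), and the endothelial and stem cell receptor gene Eng at 1108, 590 and 891 (-0.91). The list of stem cell transcription factors had a median of 0.09. Gfi1, a repressor that restrains stem cell division, was at 528, 1323 and 1153 (1.32), opposite in sign to its relative Gfi1b. Cytokine receptors had a median of 0.47 with 24 of 27 genes positive. Il7r, the receptor of lymphoid progenitors, was at 334, 1386 and 1001 (2.05), and Il6st, the shared receptor chain gp130, at 849, 2279 and 848 (1.43, and 0.69 by its other probe set). Socs3 was at 188 and 526 (1.48) and Socs2 at 330 and 803 (1.28, and -0.01 and 1.80 by its other probe sets), both feedback inhibitors of cytokine signalling, but Socs3 was at -0.0523 with probe sets unique to a transcript. In the Wnt list the receptor gene Fzd7 was at 1001, 239 and 240 (-2.07), while the median of the list was 0.17. TGF-beta and BMP genes had a median of 0.29 and none beyond 2-fold. Id2, an inhibitor of E proteins, was at 777, 2817 and 985 (1.86, but 0.02 by its other probe set) in a Notch, Id and E protein list with a median of -0.04. Hoxa5 was at 819, 416 and 825 (-0.98, but 0.22 by its other probe set) and Hoxa9 at 6973, 5711 and 11734 (-0.29).

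Adhesion and cytoskeleton genes were mostly higher. Vcam1, an adhesion molecule of stroma and macrophages, was at 566 on WT, 2890 on p53 KO and 713 on DKO (2.35), but its other probe sets gave 0.43 and 0.95. Itgb2, the beta chain of leukocyte integrins, was at 2811, 8853 and 1684 (1.66). Itga4, which binds Vcam1, was at 1835, 997 and 1118 (-0.88), but its other probe sets gave -0.97 and 1.30. Rhou, an atypical small GTPase, was at 226, 1282 and 167 (2.50, and 1.74 by its other probe set). Rac2, the Rac form of blood cells, was at 2080, 4248 and 2921 (1.03). Gsn, the actin-severing protein gelsolin, was at 1871, 6378 and 1710 (1.77), and Myh10, a nonmuscle myosin, was lower at 7484, 3545 and 1369 (-1.08).

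Chromatin regulators were nearly level. Polycomb genes had a median of 0.01, and trithorax and SWI/SNF genes a median of -0.03 with no gene beyond 2-fold. Sirt2, a deacetylase of tubulin and histones, was at 679 on WT, 142 on p53 KO and 580 on DKO (-2.26), and Ring1, a polycomb ubiquitin ligase, at 426, 202 and 271 (-1.08). Of 10 Runx and C/EBP factors 6 were higher and 4 lower, and of 17 ETS factors 12 were higher and 5 lower. Cebpd was at 649, 1785 and 569 (1.46, but -0.14 by its other probe set) and Cebpb at 155, 354 and 120 (1.19), while Cbfa2t2, a corepressor of the ETO family, was at 1601 and 1022 (-0.65). Of ETS factors, Spib, a relative of PU.1, was at 283, 1043 and 384 (1.88), and Ets1 at 470, 1368 and 501 (1.54, and between 0.07 and 1.70 by other probe sets). Irf8, which directs monocyte fate, was at 1798, 4541 and 3816 (1.34, and 0.55 by its other probe set).

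Some of the genes followed each other when the measured genes of a chromosome were ordered by start. Unmeasured genes between them were passed over and distance was not used. How many such runs would arise without regard to position was not estimated. On chromosome 19 such a run held 5 members of the Ms4a family at least 2-fold higher. Among them were Ms4a4b at 269 and 785 (1.54) and Ms4a6c at 1097 and 2761 (1.33). On chromosome 11 a run of 3 Schlafen genes held Slfn2 at 445 and 1744 (1.97) and Slfn4 at 2904 and 11892 (2.03). Among lower genes, chromosome 19 held a run of Ldb1, Pprc1 and Nolc1. Pprc1, a coactivator of mitochondrial genes, was at 2883 and 1133 (-1.35), and Nolc1, a nucleolar chaperone, at 4091 and 1772 (-1.21). By chromosome, the share of measured genes at least 2-fold higher ran from 4.20% on chromosome 18 to 9.20% on chromosome 6, leaving out the 4 genes measured on the Y.

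Several of the 25 highest and 25 lowest bright genes belong to none of the functions above. Gch1, which starts the synthesis of tetrahydrobiopterin, was at 448 on WT, 2393 on p53 KO and 383 on DKO (2.42). The other Gch1 probe set gave 1.68. Sgms2, a sphingomyelin synthase, was at 440, 2387 and 571 (2.44, and 0.83 by its other probe set). Ugcg, which diverts the same ceramide to glycolipids, was lower at 1698, 427 and 521 (-1.99). Its other probe sets ran from -1.95 to -0.68. Natd1 was at 844, 5195 and 862 (2.62). Apol8 was at 515, 3505 and 203 (2.77) and its relative Apol11b at 731, 3716 and 329 (2.35). On the lower side, Epdr1 was at 3069, 704 and 424 (-2.12, and -1.13 and -0.79 by its other probe sets). Mmp14, a membrane-bound metalloprotease, was at 1518, 353 and 222 (-2.10). Acss2, which makes acetyl-CoA from acetate, was at 3587, 856 and 1575 (-2.07, and -1.19 by its other probe set). Gja1, the gap junction protein connexin 43, was at 4967, 1358 and 2383 (-1.87), and its 4 other probe sets ran from -1.84 to -0.44. Rap1gap, an inhibitor of the GTPase Rap1, was at 1164, 295 and 305 (-1.98).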

How the data were processed

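RNA of 3 samples, 1 each of WT, p53 KO and DKO LSK cells, was extracted with RNeasy kits, amplified in 1 cycle and biotin-labelled with an Affymetrix kit, per the labels' protocols. The deposited values are signal intensity on a linear scale for 45101 probe sets. Per the submitters' processing notes the authors used GCOS and MAS5, with no version given. For the probe sets, a genome build was not given in the sources used here. Such values carry scaling within MAS5, and 1 array per genotype limits the precision of every value.

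The platform annotation gave gene symbols, and for 34754 probe sets the Entrez ID led to the current symbol in the RefSeq table of GRCm38.p6. Of the probe sets 34958 carried 1 symbol, 932 several and 9211 none. Of the probe sets with 1 symbol, the brightest by its mean over the 3 arrays stood for the gene. Signals below the median of all signals (110.4) were set to it before log2 was taken. The log2 difference is p53 KO minus WT, and genes at least 2-fold apart were counted. No test was made. The calculation was tested on simulated data, in Python 3.11.15 with pandas 2.3.3, numpy 2.4.6 and scipy 1.17.1, and figures were drawn with matplotlib 3.10.9.

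The members, the 105 lists and the genes were chosen with earlier results of these data known. Genes were named if they were among the 25 highest or 25 lowest with at least 448.4, the 75th percentile of all signals, on WT or p53 KO (clone and predicted names left out), among the 5 members of a list with the largest absolute differences, among the brightest of a list where a level is described, or markers. Promoter motifs, members of symbol stems and of neighbouring runs, and the genes Nop58 to Fbl, Mxd4, Cdk4, Mki67, Csf1r, Cxcr2, Slc4a1, Klf1, Gata1 and Hoxa9 where they lie outside these, were chosen after their values were seen. As alternatives, the arrays were rescaled to a common 2% trimmed mean, quantile normalized or normalized by cyclic loess (3 iterations). The floor was moved to the 25th or 75th percentile or replaced by a pseudocount of 32. Genes were also represented by the mean of their probe sets, by probe sets unique to a transcript or by the brightest over WT and p53 KO alone, and thresholds of 1.5-fold and 3-fold were tried.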

Additional observations from a re-analysis of the deposited data

How the results depend on the processing

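Counts of genes at least 2-fold higher and lower, 820 and 402, were 1531 and 895 when the floor was the 25th percentile, 417 and 234 when it was the 75th, and 518 and 245 with the mean of all probe sets of a gene. With a threshold of 1.5-fold they were 1936 and 1571, and with 3-fold 230 and 64. Under the other 6 alternatives they ran from 720 to 961 higher and from 335 to 460 lower, which is within 1.5 times of the reported counts. With probe sets unique to a transcript, Hbb-b2 was at -0.15, Ncaph2 at -0.10 and Socs3 at -0.0523, against 2.02, 1.29 and 1.48 otherwise, and the median of the 2 measured haemoglobins became -0.0687 against 1.02. When the floor was the 75th percentile, the median of Runx and C/EBP factors was -0.0093 against 0.51. Of 308 named genes at least 2-fold apart, 155 stayed past 2-fold in the same direction in every alternative that measured them. Of 31 lists with a median of at least 0.5 either way, 16 stayed past 0.5 in all 9 alternatives that keep the threshold. The cause of these shifts was not tested. No paired analysis was possible because each group has 1 array, and for the same reason no array could be left out. Genes near the floor, below a signal of 200 on both arrays, could not reach 2-fold by construction.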

Other observations

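Lipid, autophagy and ion transport genes were not described above. Map1lc3a, which coats autophagosomes, had a WT signal of 711 and a p53 KO signal of 2061 (1.54 on the log2 scale, and 0.53 by its other probe set). Atg4a, the protease that prepares it, was at 1176 and 3332 (1.5). Scd1, which desaturates fatty acids, was at 302 and 803 (1.41, and 0.39 by its other probe set), while Acsl5, which activates them, was at 12432 and 6643 (-0.90). The median of the sterol synthesis list was -0.11. Pkm, the pyruvate kinase of most tissues, was at 1819 and 4502 (1.31), and Pklr, the form of liver and red cells, at 1325 and 515 (-1.36, and -0.71 by its other probe set). Among ion pumps, Atp7b, a copper exporter, was at 1671 on WT, 497 on p53 KO and 219 on DKO (-1.75, but 0.35 by its other probe set). The beta subunits of the sodium pump went opposite ways. Atp1b1 was at 594 and 1347 (1.18, and between 0.78 and 1.35 by its other probe sets). Atp1b2, the lowest gene of the comparison, was at 3537 and 170 (-4.38, but 0.14 by its other probe set).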
